A study of Mus musculus with 18 samples.

Results

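The genes described here are nuclear genes named for subunits of the mitochondrial respiratory chain and of ATP synthase. They were chosen by gene symbol alone: symbols that begin with Nduf followed by a, b, c, s or v and a digit (complex I), the symbols Sdha, Sdhb, Sdhc and Sdhd (complex II), and symbols that begin with Uqcr (complex III), with Cox4, Cox5, Cox6, Cox7 or Cox8 (complex IV) or with Atp5 (complex V, ATP synthase). The rule took 82 of the 14411 genes listed in any of the 3 tissue tables, of which 37 belong by name to complex I, 4 to complex II, 8 to complex III, 16 to complex IV and 17 to complex V. No measured value entered the rule. Of the members 78 were listed among 7569 genes in the Choroid, 78 among 12827 genes in the Retina and 81 among 13957 genes in the Brain, and 76 members stood in all 3 tables. The other 6 were Atp5sl and Cox4i2 (Retina and Brain), Cox6a2 and Cox7a1 (Brain), Cox8b (Choroid) and Ndufa4l2 (Choroid and Brain). Some symbols are older names: Atp5f1, Atp5sl and Atp5s are Atp5pb, Dmac2 and Dmac2l in RefSeq. Ndufa4 carries a complex I name, but its protein is known as a subunit of complex IV.

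The study measured RNA by sequencing in 18 libraries from mice of the genotype Cdh5(PAC)-cre/ERT2+; NuTRAP+ that had been induced with tamoxifen (Tam). The Cdh5(PAC)-cre/ERT2 transgene provides a Cre recombinase that tamoxifen activates, under the control of Cdh5, the gene of the endothelial cadherin, and NuTRAP is a Cre-dependent reporter that tags ribosomes, so that RNA on the tagged ribosomes can be pulled down by translating ribosome affinity purification (TRAP). There were 6 groups of 3 libraries each: Choroid Positive, Choroid Input, Retina Positive, Retina Input, Brain Positive and Brain Input. Positive is the RNA bound by TRAP and Input is the RNA of the same kind of homogenate before the pulldown. Every group therefore carried the same transgenes and the same induction, and no mice without Cre or without tamoxifen were among the 6 groups. The promoter limits the tagging to cells in which Cdh5 was active, mostly endothelial cells. The sources used here do not give the age, sex or strain of the mice or how many animals went into each library. All p-values below are therefore measures of the spread between libraries.

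The respiratory chain passes electrons from NADH (through complex I) and from succinate (through complex II) by way of ubiquinone to complex III, by cytochrome c to complex IV and to oxygen, and complexes I, III and IV pump the protons whose return drives ATP synthase. The mitochondrial genome encodes a few core subunits, and the genes described here encode most of the others. The symbol rule leaves out some nuclear subunit genes, such as Cyc1 of complex III. It takes in Atp5sl, a gene now named for complex I assembly. Several complex IV subunits and the c subunit of ATP synthase come from more than 1 nuclear gene, and some of these isoform genes are known for a tissue or a condition: Cox6b2 for testis, Cox6a2, Cox7a1 and Cox8b for heart and skeletal muscle (Cox7a1 and Cox8b also for brown fat), Cox4i2 for lung and hypoxia, and Ndufa4l2 for hypoxia and vascular mural cells. Endothelial cells are known to draw much of their ATP from glycolysis, whereas neurons and photoreceptors depend strongly on oxidative phosphorylation.

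The listed genes held 713733 to 2717264 counts per library in Choroid Positive and 2018126 to 10031274 in Choroid Input. In the Retina they held 12325658 to 26069649 in Positive and 20915469 to 36157140 in Input, and in the Brain 31111437 to 40112343 in Positive and 28128866 to 43219831 in Input. All 10 endothelial markers examined, Cdh5 among them, were listed in every tissue, and together they held a mean of 1.54% of the listed counts in Choroid Positive and 0.220% in Choroid Input, 0.366% in Retina Positive and 0.0263% in Retina Input, and 0.533% in Brain Positive and 0.0171% in Brain Input. Markers of other cell types remained in the Positive fractions, and their values stand beside the results of each tissue. Their part in those results was not tested.

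The summed counts of the members were lower in Choroid Positive than in Choroid Input. They made up 0.716, 0.912 and 0.807% of the listed counts in Choroid Positive, against 1.05, 1.44 and 1.20% in Choroid Input, and the libraries of the fractions did not overlap. In the Retina they made up 0.998, 1.02 and 0.847% in Positive, against 0.943, 0.945 and 1.03% in Input. In the Brain they made up 1.50, 1.51 and 1.47% in Positive, against 1.69, 1.42 and 1.43% in Input. In both of these tissues the fractions overlapped. The mean share was 0.812% ± 0.098 in Choroid Positive and 1.23% ± 0.192 in Choroid Input, 0.957% ± 0.0956 in Retina Positive and 0.972% ± 0.0485 in Retina Input, and 1.49% ± 0.0243 in Brain Positive and 1.51% ± 0.156 in Brain Input (SD, n = 3 each). With 3 libraries against 3, an exact two-sided permutation test cannot give a p below 0.10. Each table held its own set of genes, so shares of different tissues have different denominators. The lowest Retina Positive share, in replicate 3, stood in the library with the highest endothelial share (0.539%, against 0.279 and 0.281%) and the lowest photoreceptor share.

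**Figure D1:**
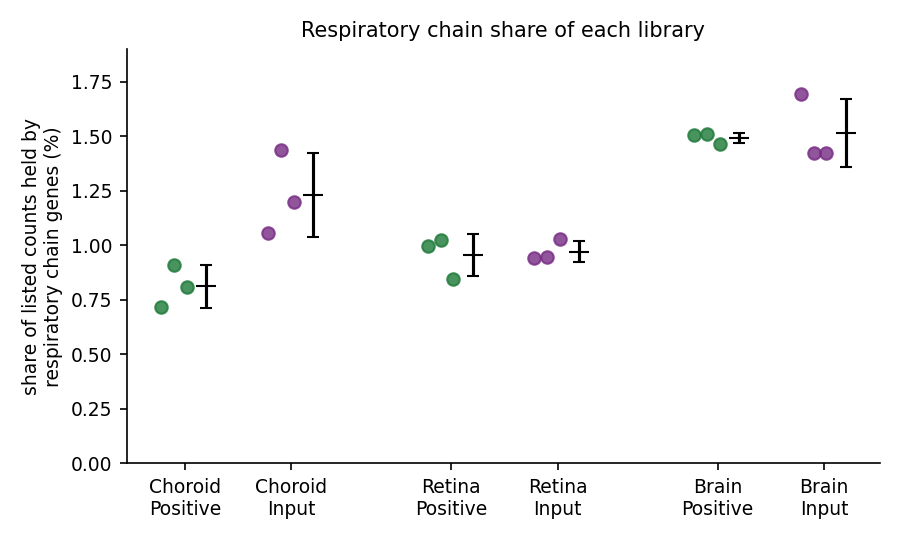
Share of all listed counts (percent, vertical axis) held by the member genes in each of the 18 libraries, by tissue and fraction; points are libraries and bars are group means with SD. The Choroid Positive libraries lie between 0.716 and 0.912%, all below the Choroid Input libraries, while the fractions overlap in Retina and Brain.

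Cox6b2, the isoform gene of the complex IV subunit COX6B, was enriched by TRAP in the Brain, while in the Choroid its Positive values lay below its Input values. The Choroid table listed it through Input alone: a gene is listed where it reached 50 raw counts in all 3 libraries of at least 1 fraction, and Cox6b2 did so in Input only. For genes listed in this way the comparison of Positive with Input in the Choroid is a description, and no p is given for it. In the Brain it had 21.3, 23.02 and 19.6 CPM in Brain Positive, against 4.76, 4.12 and 3.86 CPM in Brain Input, where CPM is counts per 1000000 after scaling within the tissue table. Every Brain Positive library was above every Brain Input library, and the log2 fold change of Positive over Input was 2.33 ± 0.13 (SE, edgeR adjusted p = 8.9e-08), where the test is edgeR's quasi-likelihood test with Benjamini-Hochberg adjustment over all genes of the table, as in every adjusted p that follows. In the Choroid it had 7.31, 0 and 3.48 CPM in Choroid Positive, against 23.01, 35.8 and 52.3 CPM in Choroid Input, with a log2 fold change of -3.02 ± 0.61 (SE). These Choroid values rest on 19.8, 0 and 5.74 raw counts in Positive, against 83.98, 73.4 and 542 in Input, and the library with no read allows up to 3 counts, or 4.77 CPM. In the Retina it had 6.82, 4.88 and 5.73 CPM in Retina Positive, against 6.62, 5.08 and 4.78 CPM in Retina Input, with a log2 fold change of 0.08 ± 0.22 (SE, edgeR adjusted p = 0.81). The Retina fractions overlapped. The widely expressed counterpart Cox6b1 had 268, 258 and 248 CPM in Brain Positive, against 253, 193 and 196 CPM in Brain Input, with a log2 fold change of 0.27 ± 0.10 (SE, edgeR adjusted p = 0.033), a call that was lost on leaving out any of 5 of the 6 libraries. In the other tissues Cox6b1 did not pass the test. It had 133, 186 and 144 CPM in Choroid Positive, against 143, 245 and 162 CPM in Choroid Input (log2 fold change -0.25 ± 0.25 SE, edgeR adjusted p = 0.46), and in the Retina 117, 132 and 108 CPM in Retina Positive, against 91.9, 90.9 and 109.7 CPM in Retina Input (log2 fold change 0.29 ± 0.11 SE, edgeR adjusted p = 0.083).

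The share of Cox6b2 within its subunit needs no scaling between libraries. Counted per kilobase of transcript, Cox6b2 made up 2.74% ± 2.9 in Choroid Positive against 18.6% ± 6.9 in Choroid Input, 5.21% ± 1.1 in Retina Positive against 5.99% ± 1.4 in Retina Input, and 8.44% ± 0.55 in Brain Positive against 2.18% ± 0.14 in Brain Input of Cox6b1 and Cox6b2 together (SD, n = 3 each). The libraries of the fractions were separate in the Choroid and in the Brain, with opposite order, and overlapped in the Retina. An exact two-sided permutation test gave p = 0.10 in the Brain, the smallest value that 3 against 3 allows, and 0.50 in the Retina.

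Ndufa4l2, the paralogue of Ndufa4, rose in the Brain. It had 11.5, 9.54 and 7.53 CPM in Brain Positive, against 3.63, 3.52 and 4.09 CPM in Brain Input (log2 fold change 1.34 ± 0.18 SE, edgeR adjusted p = 6.4e-05). In the Choroid, where Input alone brought it into the table, it had 2.56, 6.36 and 1.74 CPM in Choroid Positive, against 27.4, 32.4 and 27.4 CPM in Choroid Input, with a log2 fold change of -3.29 ± 0.56 (SE), and its Choroid Positive libraries held only 7, 3.69 and 3 raw counts. In both tissues the fractions were separate. The 7 listed of 8 mural cell markers together held 0.0137, 0.0174 and 0.0153% of counts in Brain Positive, against 0.00731, 0.00763 and 0.00785% in Brain Input, and 0.0207, 0.0199 and 0.0169% in Choroid Positive, against 0.0922, 0.0474 and 0.0950% in Choroid Input. Their summed share was thus higher in Positive in the Brain and lower in the Choroid, although 4 of the 7 fell and 2 rose in the Brain, and their part in the Ndufa4l2 values was not tested. The span of Ndufa4l2 overlaps that of Shmt2 in the annotation, and it is not given whether reads were counted by strand. Ndufa4 itself passed the test in none of the 3 tissues. It had 135, 249.8 and 99.1 CPM in Choroid Positive, against 192, 349 and 242 CPM in Choroid Input (log2 fold change -0.72 ± 0.33 SE, edgeR adjusted p = 0.11). In the Retina it had 217, 268 and 155 CPM in Retina Positive, against 181, 216 and 223 CPM in Retina Input (log2 fold change 0.04 ± 0.19 SE, edgeR adjusted p = 0.88), and in the Brain 281, 255 and 261 CPM in Brain Positive, against 308, 232 and 229 CPM in Brain Input (log2 fold change 0.05 ± 0.11 SE, edgeR adjusted p = 0.68).

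Of the isoform genes known from heart and skeletal muscle, each was listed in 1 tissue. Cox7a1 had 8.11, 10.5 and 8.81 CPM in Brain Positive, against 3.05, 2.79 and 3.46 CPM in Brain Input (log2 fold change 1.56 ± 0.16 SE, edgeR adjusted p = 1.0e-05), and the fractions were separate. Cox6a2 went the other way, with 1.79, 2.04 and 2.03 CPM in Brain Positive, against 4.59, 5.15 and 3.41 CPM in Brain Input (log2 fold change -1.16 ± 0.20 SE, edgeR adjusted p = 4.5e-04), again without overlap. Cox8b had 0, 3.18 and 7.54 CPM in Choroid Positive, against 23.3, 91.3 and 55.6 CPM in Choroid Input, a log2 fold change of -4.11 ± 0.84 (SE) on 0, 2 and 13 raw counts in Positive. It too was listed through Input alone, and its library with no read allows up to 3 counts, or 1.1 CPM. Of 12 striated muscle markers 5 were listed in the Choroid, and they held 0.00811, 0.0398 and 0.0230% of its Positive counts, against 0.0145, 0.0368 and 0.0557% of its Input counts. None of 5 brown adipocyte markers was listed there. The part of such cells in the Cox8b value was not tested.

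The widely expressed counterparts of these genes passed the test only in part. Cox7a2 did not pass in any tissue. Cox7a2 had 77.5, 119 and 83.5 CPM in Choroid Positive, against 92.3, 139 and 99.2 CPM in Choroid Input (log2 fold change -0.26 ± 0.26 SE, edgeR adjusted p = 0.48). It had 71.3, 74.8 and 61.7 CPM in Retina Positive, against 73.6, 76.01 and 78.7 CPM in Retina Input (log2 fold change -0.14 ± 0.09 SE, edgeR adjusted p = 0.32). In the Brain Cox7a2 had 149, 147 and 152 CPM in Brain Positive, against 169, 131 and 133 CPM in Brain Input (log2 fold change 0.05 ± 0.10 SE, edgeR adjusted p = 0.68). The fractions of Cox7a2 overlapped in each tissue. Cox8a did not pass either, although its Choroid value was low. Cox8a had 95.1, 317 and 151 CPM in Choroid Positive, against 267, 465 and 312 CPM in Choroid Input (log2 fold change -0.93 ± 0.37 SE, edgeR adjusted p = 0.071). It had 144, 157 and 119 CPM in Retina Positive, against 159, 155 and 175 CPM in Retina Input (log2 fold change -0.22 ± 0.11 SE, edgeR adjusted p = 0.18). In the Brain Cox8a had 333, 343 and 324 CPM in Brain Positive, against 363, 284 and 266 CPM in Brain Input (log2 fold change 0.13 ± 0.10 SE, edgeR adjusted p = 0.27). Cox6a1 rose in the Retina, without overlap of the fractions. There it had 136, 138 and 136 CPM in Retina Positive, against 108, 108 and 116 CPM in Retina Input (log2 fold change 0.30 ± 0.07 SE, edgeR adjusted p = 0.014). In the Choroid Cox6a1 had 151, 274 and 159 CPM in Choroid Positive, against 162, 289 and 220.0 CPM in Choroid Input (log2 fold change -0.22 ± 0.28 SE, edgeR adjusted p = 0.58). In the Brain Cox6a1 had 315, 304 and 301 CPM in Brain Positive, against 331, 262 and 256 CPM in Brain Input (log2 fold change 0.12 ± 0.09 SE, edgeR adjusted p = 0.28). The fractions of Cox6a1 overlapped in the Choroid and in the Brain.

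Subunit 4 of complex IV has the hypoxia-linked isoform gene Cox4i2 and the common Cox4i1, and neither passed the test in the Retina or the Brain. Cox4i2 had 18.3, 15.9 and 27.9 CPM in Retina Positive, against 28.9, 23.5 and 19.3 CPM in Retina Input (log2 fold change -0.20 ± 0.23 SE, edgeR adjusted p = 0.57). In the Brain Cox4i2 had 2.36, 1.93 and 2.30 CPM in Brain Positive, against 3.36, 2.77 and 2.38 CPM in Brain Input (log2 fold change -0.36 ± 0.20 SE, edgeR adjusted p = 0.13). The Brain fractions of Cox4i2 did not overlap by a narrow margin. Cox4i1 had 332, 370.3 and 291 CPM in Retina Positive, against 318, 309 and 355 CPM in Retina Input (log2 fold change 0.02 ± 0.11 SE, edgeR adjusted p = 0.91). In the Brain Cox4i1 had 634, 631 and 584 CPM in Brain Positive, against 695, 534 and 531 CPM in Brain Input (log2 fold change 0.07 ± 0.10 SE, edgeR adjusted p = 0.53). Its fractions overlapped in both tissues, and its Choroid values are given below.

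**Figure D2:**
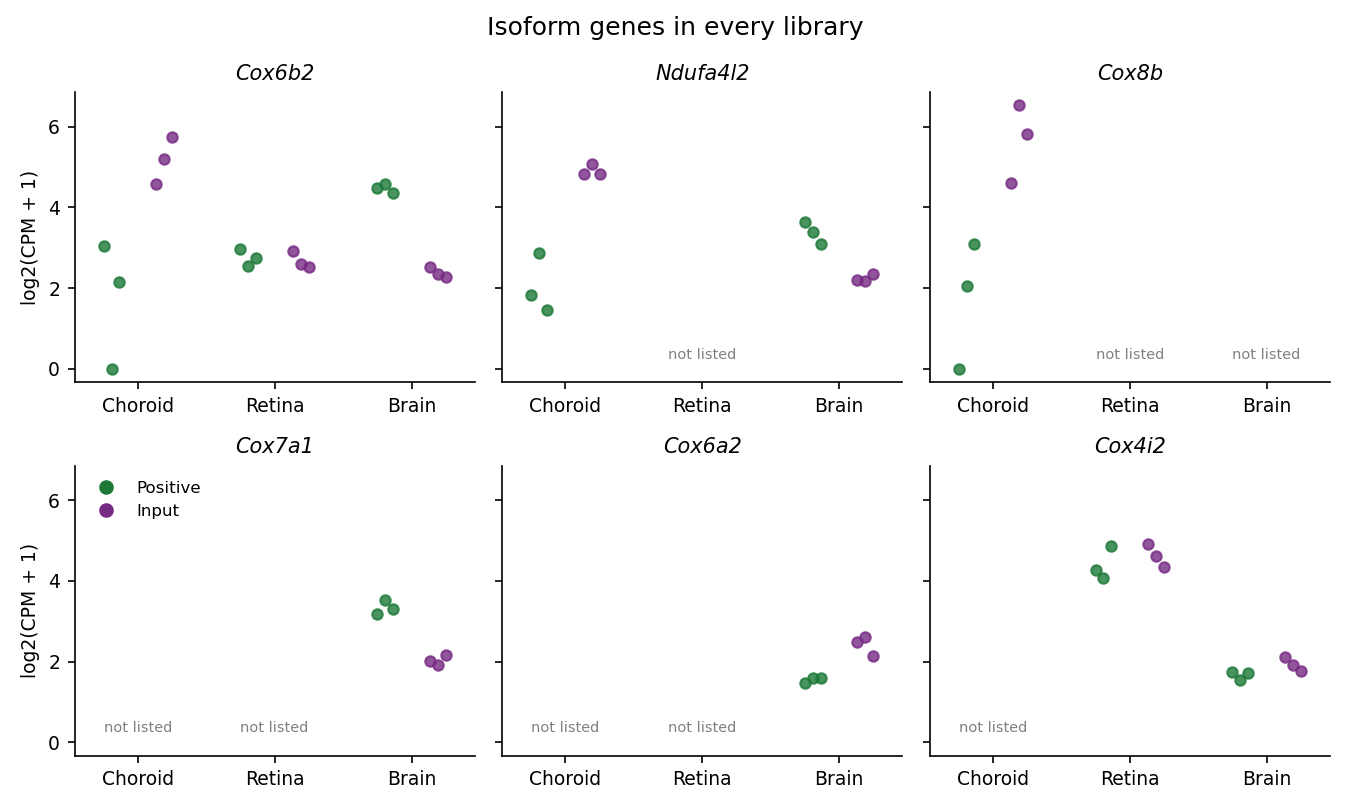
Log2(CPM + 1) of the isoform genes (vertical axis) by tissue, with Positive (green) left of Input (purple); each point is a library, and tissues whose table lacks the gene are marked as not listed. Cox6b2 and Ndufa4l2 lie higher in Brain Positive than in Brain Input and lower in Choroid Positive than in Choroid Input, and the Retina fractions of Cox6b2 overlap.

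Shares per kilobase were computed for further sets of isoform genes. Cox7a2l, whose protein SCAFI (COX7A2L) is known from respiratory supercomplexes, made up 65.0% ± 4.8 in Choroid Positive against 46.2% ± 4.5 in Choroid Input, 51.7% ± 0.66 in Retina Positive against 55.4% ± 2.1 in Retina Input, and 42.8% ± 0.76 in Brain Positive against 37.0% ± 2.3 in Brain Input of the listed Cox7a genes per kilobase (SD, n = 3 each). The fractions were separate in all 3 tissues (exact two-sided permutation p = 0.10 in each), with Positive higher in the Choroid and the Brain and lower in the Retina. The c subunit of the ATP synthase rotor is encoded by Atp5g1, Atp5g2 and Atp5g3, whose mature proteins are identical. Atp5g2 made up 42.0% ± 5.0 in Choroid Positive against 26.4% ± 6.8 in Choroid Input, 27.8% ± 3.5 in Retina Positive against 29.6% ± 1.6 in Retina Input, and 27.1% ± 1.1 in Brain Positive against 22.2% ± 0.64 in Brain Input of the 3 genes per kilobase (SD, n = 3 each), with separate fractions in the Choroid and the Brain (exact p = 0.10) and overlap in the Retina (exact p = 0.50). In the Choroid Atp5g1 reached the minimum in Input only. Reads of these paralogues and of processed pseudogenes may be split between copies, and the treatment of multiply mapped reads is not known here.

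The promoters of 6 members are shown: those of the isoform genes Cox6b2, Cox7a1 and Cox8b, whose fold changes were large, and those of the widely expressed Cox6b1, Ndufa8 and Sdha for comparison of their letters. The windows are the 250 bases before the RefSeq transcription start on GRCm38.p6, read 5′ to 3′ on the gene's strand: Cox6b2 at chr7:4753095-4753344 (minus strand), Cox6b1 at chr7:30626115-30626364 (minus strand), Cox7a1 at chr7:30183921-30184170 (plus strand), Cox8b at chr7:140900447-140900696 (minus strand), Ndufa8 at chr2:36049339-36049588 (minus strand) and Sdha at chr13:74350241-74350490 (minus strand). Capitals mark matches, on either strand, to the motif of the factor NRF1 (GCGC, any base, T and again GCGC) or to the motif CCGGAAG of ETS factors such as GABP, both known regulators of respiratory genes.
Cox6b2: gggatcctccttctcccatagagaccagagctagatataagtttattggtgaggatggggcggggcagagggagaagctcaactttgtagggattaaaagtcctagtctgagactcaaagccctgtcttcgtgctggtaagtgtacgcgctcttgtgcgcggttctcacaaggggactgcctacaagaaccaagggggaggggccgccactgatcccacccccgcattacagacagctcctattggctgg
Cox6b1: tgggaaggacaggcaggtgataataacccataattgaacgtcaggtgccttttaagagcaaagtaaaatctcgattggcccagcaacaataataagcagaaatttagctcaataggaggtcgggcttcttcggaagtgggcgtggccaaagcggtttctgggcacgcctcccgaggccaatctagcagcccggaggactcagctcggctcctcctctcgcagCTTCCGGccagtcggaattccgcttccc
Cox7a1: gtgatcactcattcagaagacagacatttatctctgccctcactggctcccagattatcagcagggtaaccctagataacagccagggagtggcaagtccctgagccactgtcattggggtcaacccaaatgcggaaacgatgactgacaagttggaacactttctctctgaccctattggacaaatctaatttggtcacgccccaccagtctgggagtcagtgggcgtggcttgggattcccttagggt
Cox8b: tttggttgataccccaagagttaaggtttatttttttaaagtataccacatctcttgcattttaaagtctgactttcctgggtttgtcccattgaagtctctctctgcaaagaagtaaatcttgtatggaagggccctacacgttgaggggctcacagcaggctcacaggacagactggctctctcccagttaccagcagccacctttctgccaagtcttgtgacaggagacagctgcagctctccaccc
Ndufa8: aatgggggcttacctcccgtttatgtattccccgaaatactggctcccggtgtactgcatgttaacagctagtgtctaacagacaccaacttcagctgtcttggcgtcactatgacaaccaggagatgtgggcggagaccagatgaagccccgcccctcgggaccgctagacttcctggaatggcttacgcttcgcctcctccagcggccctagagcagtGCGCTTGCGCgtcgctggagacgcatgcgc
Sdha: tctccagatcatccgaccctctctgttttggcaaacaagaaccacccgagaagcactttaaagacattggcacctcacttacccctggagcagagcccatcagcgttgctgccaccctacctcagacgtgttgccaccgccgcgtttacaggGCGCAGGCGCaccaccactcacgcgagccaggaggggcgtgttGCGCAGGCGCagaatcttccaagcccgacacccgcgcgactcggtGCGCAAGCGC
The windows of Cox8b, Cox7a1 and Cox6b2 held 1, 4 and 8 CG dinucleotides and neither motif. Those of Cox6b1, Ndufa8 and Sdha held 14, 17 and 21 CG dinucleotides, with 1 ETS match in Cox6b1, 1 NRF1 match in Ndufa8 and 3 NRF1 matches in Sdha. Ndufa8 and Sdha are not counterparts of the isoform genes shown. The windows of Cox7a2 and Cox8a, the counterparts of Cox7a1 and Cox8b, held 14 and 11 CG dinucleotides and neither motif. Of the 82 members, 68 had a window in the RefSeq table. The NRF1 motif stood in the window of 13 of these 68 genes (19.1%), against 8.40% of the 11363 listed genes with a window, and the ETS motif in 12 (17.6%), against 14.0%. The cyclic AMP response core TGACGT stood in 9 (13.2%), against 11.1%, and the hypoxia element core ACGTG in 16 (23.5%), against 24.3%, each searched on both strands. The median GC content of the windows was 56.2% among the members and 59.6% among all listed genes. A match describes these letters and is no measured binding site.

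Members tended to be lower in Choroid Positive than in Choroid Input. Of the 78 members 2 rose (Ndufa8 and Cox7a2l) and 23 fell at an adjusted p under 0.05, against 16.3% of all 7569 genes that rose and 20.2% that fell (36.6% in either direction). The median log2 fold change was -0.55 over the members and -0.01 over all genes, and 72 of the 78 members had a negative sign. In bulk RNA, fewer cells of a type and less RNA per cell cannot be told apart. In the same libraries the 7 listed of 8 markers of the retinal pigment epithelium held 0.292, 0.349 and 0.204% of counts in Positive, against 2.69, 4.37 and 3.33% in Input, and all 6 fibroblast markers 0.0574, 0.0638 and 0.0402% in Positive, against 0.419, 0.325 and 0.329% in Input. Their part in the lower member counts was not tested. With the replicate number as a block, which pairs the fractions in this tissue, 36 members fell. Leaving out 1 library gave between 10 and 37 members that fell, with 37 without Choroid Positive 2, the shallowest library, and 10 without Choroid Input 2 or without Choroid Input 3. It also gave 12 without Choroid Positive 1 and 13 without Choroid Positive 3.

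The table lists genes that reached 50 raw counts in all 3 libraries of at least 1 fraction, and 22 members reached it in Input only. These were listed through Input alone, in which the libraries were also deeper, so their differences and the counts that include them are no support for a lower level in Positive. Among them were Ndufs1, Ndufs3, Ndufv2, Atp5g1, Cox6b2, Cox8b and Ndufa4l2. The other 56 members reached the minimum in both fractions. Of these 56, 2 rose and 13 fell, against 33.1% that rose and 9.89% that fell (43.0% in either direction) of the 2993 genes listed on the same terms. Their median log2 fold change was -0.46, against 0.35 over the 2993 genes, and 50 of 56 were negative.

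By complex, 1 complex I member rose and 12 fell of 37 (median log2 fold change -0.67), and 1 of 4 complex II members fell (-0.35). None of the 8 complex III members passed the test in either direction, although all 8 had a negative sign (median -0.49) and 3 had an unadjusted p under 0.05, all lower. In complex IV 1 rose and 4 fell of 13 (-0.25), and in complex V 6 fell of 16 (-0.49). These counts include members listed through Input alone. Among members at the minimum in both fractions, 1 rose and 6 fell of 20 in complex I (median -0.59). In complex IV it was 1 and 2 of 11 (-0.24), and in complex V 0 and 4 of 13 (-0.48). All members of complexes II and III were at the minimum in both. Of the 2993 genes on the same terms 33.1% rose and 9.89% fell. Ndufa8, an accessory subunit of complex I, had 133, 140.0 and 160.0 CPM in Choroid Positive, against 63.8, 95.7 and 93.3 CPM in Choroid Input (log2 fold change 0.78 ± 0.23 SE, edgeR adjusted p = 0.021). Cox7a2l had 191, 439 and 278 CPM in Choroid Positive, against 153, 162 and 152 CPM in Choroid Input (log2 fold change 0.94 ± 0.27 SE, edgeR adjusted p = 0.016). For both genes every Positive library was above every Input library. The Cox7a2l call was lost without Choroid Positive 2, where the gene stood highest (log2 fold change 0.59), without Input 1 and without Input 3, and the Ndufa8 call was lost without Positive 3 and without Input 1.

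The members that fell came from complexes I, II, IV and V. Cox4i1 had 281, 383 and 361 CPM in Choroid Positive, against 486, 671 and 489 CPM in Choroid Input (log2 fold change -0.69 ± 0.22 SE, edgeR adjusted p = 0.026), and the fractions were separate. Sdhd, a membrane anchor of complex II, had 73.9, 82.7 and 79.4 CPM in Choroid Positive, against 98.3, 149.7 and 122 CPM in Choroid Input (log2 fold change -0.65 ± 0.24 SE, edgeR adjusted p = 0.048), also without overlap. Ndufa13 (GRIM-19), an accessory subunit of complex I, had 99.5, 123 and 87.5 CPM in Choroid Positive, against 209, 341 and 214 CPM in Choroid Input (log2 fold change -1.31 ± 0.25 SE, edgeR adjusted p = 0.0013). Atp5k, the e subunit of ATP synthase, was the complex V member with the largest decrease and had 22.3, 62.1 and 39.4 CPM in Choroid Positive, against 64.6, 158 and 112 CPM in Choroid Input (log2 fold change -1.51 ± 0.40 SE), listed through Input alone. Its highest Positive library was just below its lowest Input library. Atp5b and Atp5a1, the catalytic beta and the alpha subunit of ATP synthase, were also among the members that fell, with log2 fold changes of -0.71 (edgeR adjusted p = 0.011) and -0.52 (edgeR adjusted p = 0.049). The other complex II genes did not pass the test. Sdha, the flavoprotein, had 336, 282 and 300.3 CPM in Choroid Positive, against 348, 303 and 367 CPM in Choroid Input (log2 fold change -0.15 ± 0.19 SE, edgeR adjusted p = 0.58). Sdhb, the iron-sulfur subunit, had 92.2, 126 and 92.8 CPM in Choroid Positive, against 98.6, 143 and 106 CPM in Choroid Input (log2 fold change -0.17 ± 0.24 SE, edgeR adjusted p = 0.62). Sdhc, the other membrane anchor, had 131, 137 and 110.2 CPM in Choroid Positive, against 155, 218 and 174 CPM in Choroid Input (log2 fold change -0.53 ± 0.21 SE, edgeR adjusted p = 0.071). The calls of Sdhd and Cox4i1 were lost without Choroid Positive 1, Positive 3, Input 2 or Input 3, with log2 fold changes no weaker than -0.50 and -0.52.

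Few members differed between the fractions of the Retina, and none by much: the log2 fold changes lay between -0.36 and 0.39, with a median of 0.02 over the members and -0.03 over all genes. Of 78 members 5 rose and 1 fell, against 15.3% of all 12827 genes that rose and 10.8% that fell (26.1% in either direction). Ndufa7, an accessory subunit of complex I, had 73.8, 72.7 and 75.3 CPM in Retina Positive, against 55.3, 53.7 and 59.9 CPM in Retina Input (log2 fold change 0.39 ± 0.08 SE, edgeR adjusted p = 0.0082). Atp5j, coupling factor 6 of ATP synthase, had 105, 140.0 and 123 CPM in Retina Positive, against 91.3, 92.3 and 98.8 CPM in Retina Input (log2 fold change 0.38 ± 0.11 SE, edgeR adjusted p = 0.033). In both genes the fractions were separate. The 10 photoreceptor markers held 4.94, 5.74 and 3.47% of counts in Retina Positive, against 4.35, 5.11 and 5.24% in Retina Input, and the 9 listed neuronal markers a mean of 0.559% in Positive, against 0.653% in Input. Their part in the narrow range of the members was not tested.

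Ndufa8 had 73.8, 77.4 and 83.1 CPM in Retina Positive, against 57.8, 61.5 and 67.3 CPM in Retina Input (log2 fold change 0.33 ± 0.09 SE, edgeR adjusted p = 0.030). Sdhb had 72.6, 71.5 and 71.8 CPM in Retina Positive, against 61.8, 56.9 and 62.7 CPM in Retina Input (log2 fold change 0.25 ± 0.08 SE, edgeR adjusted p = 0.045), and with Cox6a1 given above these are the 5 members that rose. Cox7a2l fell, with 129, 129.9 and 112 CPM in Retina Positive, against 148, 149 and 180.1 CPM in Retina Input (log2 fold change -0.36 ± 0.11 SE, edgeR adjusted p = 0.038). The fractions were separate for each of these genes. Of the other complex II genes none passed the test. Sdha had 481, 504 and 481 CPM in Retina Positive, against 433, 465 and 467 CPM in Retina Input (log2 fold change 0.10 ± 0.08 SE, edgeR adjusted p = 0.40). Sdhc had 130.0, 156 and 109 CPM in Retina Positive, against 101, 108 and 109.7 CPM in Retina Input (log2 fold change 0.31 ± 0.13 SE, edgeR adjusted p = 0.11). Sdhd had 66.5, 76.9 and 59.5 CPM in Retina Positive, against 55.2, 56.7 and 61.4 CPM in Retina Input (log2 fold change 0.23 ± 0.11 SE, edgeR adjusted p = 0.17). None of the 8 complex III members passed, and none had an unadjusted p under 0.05. The count that rose was between 0 and 11 when 1 library was left out, 11 without Retina Positive 3, the library with the highest endothelial share, 2 without Positive 2, 1 without Input 1 and 0 without Input 2. The count that fell was 0 in each of these fits.

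In the Brain members lay on both sides of 0. Of 81 members 28 rose and 13 fell, against 38.3% of all 13957 genes that rose and 39.7% that fell (78.1% in either direction). The median log2 fold change was 0.12 over the members and -0.02 over all genes, with members between -1.16 and 2.33. By complex, 12 members rose and 4 fell of 37 in complex I, 2 rose of 4 in complex II, 4 rose and 3 fell of 8 in complex III, 4 rose and 1 fell of 15 in complex IV, and 6 rose and 5 fell of 17 in complex V. When 1 library was left out, 21 to 48 members rose (48 without Brain Input 1) and 10 to 12 fell. With the authors' own size factors in place of those computed here 35 rose and 7 fell. The 9 listed neuronal markers held a mean of 0.357% of counts in Brain Positive, against 0.890% in Brain Input, and the 6 oligodendrocyte markers 0.110% in Positive, against 0.514% in Input. The 6 fibroblast markers went the other way, at 0.150, 0.226 and 0.181% in Positive, against 0.0129, 0.0130 and 0.0140% in Input, and all 6 rose (median log2 fold change 4.20). Their part in the member values was not tested.

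The core and the accessory subunits of complex I were counted apart. None of the 7 core subunits (Ndufs1 and Ndufv1 among them, which carry electrons from NADH towards ubiquinone) rose, also at an unadjusted p under 0.05, and 2 fell, with a median log2 fold change of -0.10. Of the other 30 members named for complex I 12 rose and 2 fell, with a median of 0.21. Of all genes in the Brain 38.3% rose and 39.7% fell, so the accessory members rose about as often as all genes and fell less often. Among the accessory genes Ndufa7 had 139.9, 144 and 129 CPM in Brain Positive, against 84.1, 69.3 and 63.9 CPM in Brain Input (log2 fold change 0.92 ± 0.10 SE, edgeR adjusted p = 1.5e-05). Ndufs1, the large iron-sulfur subunit, had 145, 151 and 143 CPM in Brain Positive, against 177, 196 and 194 CPM in Brain Input (log2 fold change -0.37 ± 0.07 SE, edgeR adjusted p = 5.0e-04). The accessory gene Ndufa10 had the largest decrease of the complex, with 114, 103 and 98.2 CPM in Brain Positive, against 148, 143 and 136 CPM in Brain Input (log2 fold change -0.44 ± 0.07 SE, edgeR adjusted p = 3.5e-04). The fractions were separate for these 3 genes. The difference between core and accessory genes was not tested.

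In complex II of the Brain the membrane anchors rose. Sdhc had 196, 202 and 201 CPM in Brain Positive, against 159, 142 and 143 CPM in Brain Input (log2 fold change 0.43 ± 0.07 SE, edgeR adjusted p = 1.9e-04). Sdhd had 129.7, 133 and 120.2 CPM in Brain Positive, against 96.8, 96.9 and 95.99 CPM in Brain Input (log2 fold change 0.40 ± 0.06 SE, edgeR adjusted p = 2.4e-04). The catalytic subunits did not pass the test. Sdha had 490.0, 497 and 475 CPM in Brain Positive, against 528, 521 and 536 CPM in Brain Input (log2 fold change -0.12 ± 0.05 SE, edgeR adjusted p = 0.065). Sdhb had 179.8, 181 and 170.1 CPM in Brain Positive, against 203, 175 and 169 CPM in Brain Input (log2 fold change -0.04 ± 0.08 SE, edgeR adjusted p = 0.63). In complex III the small subunits Uqcrb, Uqcr11, Uqcrh and Uqcr10 rose and the core proteins Uqcrc1 and Uqcrc2 and the Rieske protein gene Uqcrfs1 fell. Uqcrb had 125, 117 and 115 CPM in Brain Positive, against 87.7, 73.97 and 75.9 CPM in Brain Input (log2 fold change 0.59 ± 0.08 SE, edgeR adjusted p = 7.1e-05). Uqcrc1 had 264, 283 and 275 CPM in Brain Positive, against 360.3, 335 and 339 CPM in Brain Input (log2 fold change -0.33 ± 0.06 SE, edgeR adjusted p = 5.6e-04). The fractions of both did not overlap.

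In complex V of the Brain 6 members rose and 5 fell of 17, against 38.3% of all genes that rose and 39.7% that fell. Atp5j had 287, 277 and 276 CPM in Brain Positive, against 206, 169.9 and 165 CPM in Brain Input (log2 fold change 0.64 ± 0.09 SE, edgeR adjusted p = 7.4e-05). The catalytic Atp5b fell by 0.18 on the log2 scale, and the largest decrease was that of Atp5sl, a gene now named for complex I assembly, with 44.8, 42.1 and 39.98 CPM in Brain Positive, against 59.8, 52.7 and 52.2 CPM in Brain Input (log2 fold change -0.38 ± 0.08 SE, edgeR adjusted p = 0.0014). The fractions of both genes were separate. Outside complex V, Cox7a2l rose, with 205, 196 and 209 CPM in Brain Positive, against 153, 145 and 139 CPM in Brain Input (log2 fold change 0.48 ± 0.06 SE, edgeR adjusted p = 6.7e-05). Ndufa8 rose as well, as in the Choroid and the Retina, and had 135, 132 and 133 CPM in Brain Positive, against 128, 104 and 105 CPM in Brain Input (log2 fold change 0.25 ± 0.09 SE, edgeR adjusted p = 0.020). Both were without overlap of the fractions, Ndufa8 by a narrow margin.

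In the Brain, members with shorter transcripts had higher fold changes. The Spearman correlation between the median annotated transcript length and the log2 fold change was -0.57 over the 81 members, against -0.17 over the 13393 genes with a length, while it was 0.01 over the members in the Retina and 0.06 in the Choroid. All members of a tissue share the same 6 libraries, so these correlations are descriptions. Under 1000 nucleotides, a limit chosen after the values were seen, 24 members rose and 2 fell of 54 in the Brain (median log2 fold change 0.23), and of all genes of that length 541 rose and 176 fell of 929 (median 0.37). At 1000 nucleotides or more, 4 members rose and 11 fell of 27 (median -0.12), and 4679 genes rose and 5097 fell of 12464 (median -0.04). Of the 7 core subunits of complex I 5 have transcripts of 1000 nucleotides or more, as have Uqcrc1, Uqcrc2 and Uqcrfs1, so subunit role and length cannot be told apart here.

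**Figure D3:**
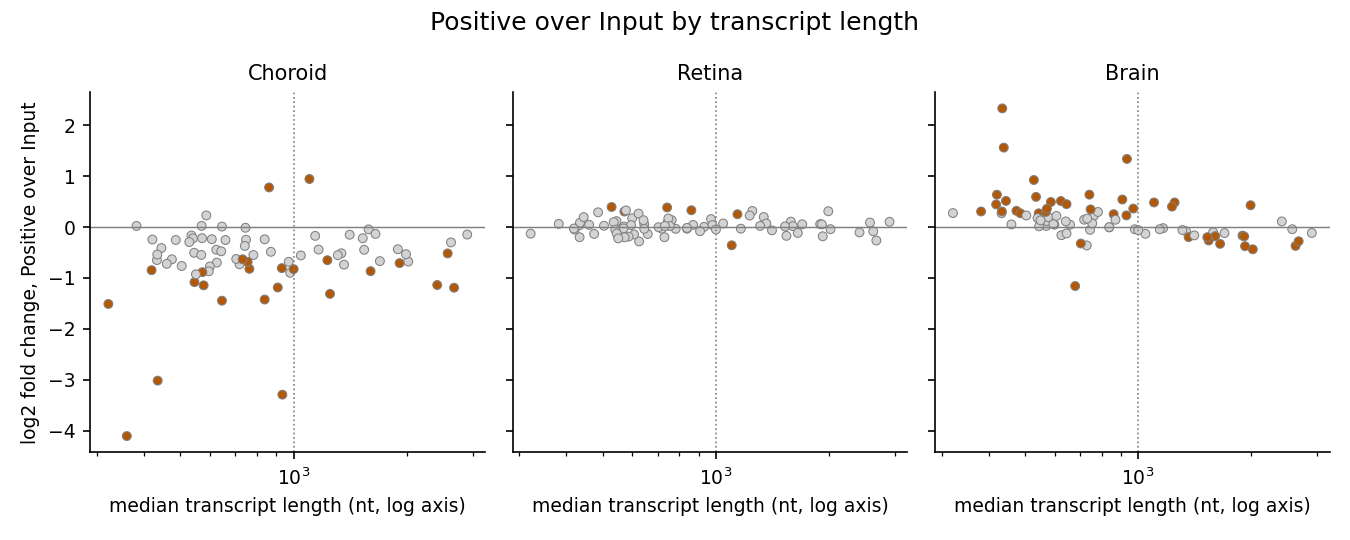
Log2 fold change of Positive over Input against the median annotated transcript length in nucleotides (logarithmic axis) for each member, by tissue, with brown points at an adjusted p under 0.05 and a dotted line at 1000 nucleotides. In the Brain the shorter transcripts lie higher (Spearman -0.57 over 81 members), and in the Retina (0.01) and Choroid (0.06) no such order is seen.

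Across the tissues, 27 members passed the test in none of the 3, among them Sdha, Ndufs3, Ndufv2 and Atp5c1, and Ndufa8 was the only member that rose in all 3. Of all genes 36.6% passed in the Choroid, 26.1% in the Retina and 78.1% in the Brain, in either direction. How many of all genes passed in no tissue or rose in all 3 was not counted, so these patterns only describe the members. Between the Choroid and the Brain directions could be opposite: 8 members listed in all 3 tissues rose in the Brain and fell in the Choroid: Atp5d, Cox6b2, Ndufa1, Ndufa13, Ndufa2, Ndufb11, Ndufv3 and Sdhd. These are 10.5% of the 76 members, against 6.49% of the 7270 genes listed in all 3 tables. Cox6b2, Ndufa1 and Ndufv3 were listed in the Choroid through Input alone, and among the genes at the minimum in both Choroid fractions the pattern held for 5 of 56 members (8.93%), against 4.07% of 2970 genes. Ndufa4l2, not listed in the Retina, had the same signs. Atp5b, Atp5f1 and Atp5g1 fell in both (3.95%, against 8.75% of all genes).

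**Figure D4:**
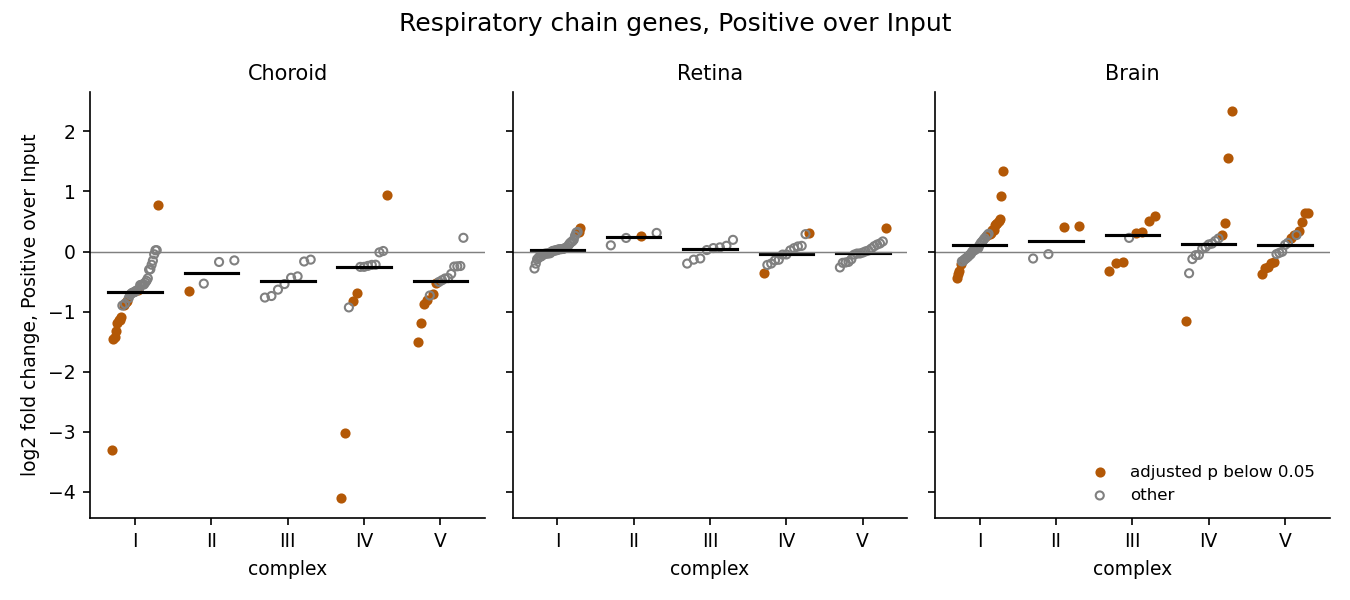
Log2 fold change of Positive over Input of each member, by complex, in Choroid, Retina and Brain; filled points passed an adjusted p under 0.05, open points did not, and lines mark the median of each complex. Most Choroid points lie below 0 (median -0.55), the Retina points lie between -0.36 and 0.39, and the Brain points lie on both sides (median 0.12).

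Whether the log2 fold change of Positive over Input differed between tissues was tested in 1 fit over all 18 libraries and the 7270 genes listed in every table. Between Choroid and Brain it was higher in the Choroid for 1 and lower for 30 of the 76 shared members, against 21.4% and 30.5% of all genes, with a median difference of -0.58 over the members and -0.09 over all genes. Between Choroid and Retina it was higher in the Choroid for 3 and lower for 16, against 21.7% and 23.3%, with medians of -0.43 and 0.07. Between Retina and Brain it was higher in the Retina for 0 and lower for 3, against 11.0% and 18.8%, with medians of -0.14 and -0.09. None was higher at an unadjusted p under 0.05 by edgeR, while with DESeq2's Wald test 10 members were higher in the Retina. The median of the members in this last comparison was 0.08 with DESeq2's size factors and 0.14 under a stricter filter on low counts, against 0.13 and 0.23 over all genes, so that its direction depends on the scaling. Of the 76 shared members 56 reached the minimum in both Choroid fractions, and the others were listed in the Choroid through Input alone. The counts and medians of both comparisons with the Choroid include those others. They are therefore no support for a lower level in Choroid Positive.

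The gene with the largest difference was Cox6b2, at -5.11 ± 0.51 (SE) for Choroid minus Brain, -2.82 ± 0.53 (SE) for Choroid minus Retina, both resting on a gene listed in the Choroid through Input alone, and -2.29 ± 0.42 (SE, edgeR adjusted p = 6.1e-04) for Retina minus Brain. Cox7a2l differed by 1.51 ± 0.27 (SE, edgeR adjusted p = 2.4e-04) for Choroid minus Retina and by -0.89 ± 0.26 (SE, edgeR adjusted p = 0.017) for Retina minus Brain, and by 0.62 ± 0.27 (SE, edgeR adjusted p = 0.063) for Choroid minus Brain, which did not pass. Ndufa8, which rose in every tissue, rose more in the Choroid than in the Brain, by 0.71 ± 0.19 (SE, edgeR adjusted p = 0.0056), and than in the Retina, by 0.68 ± 0.20 (SE, edgeR adjusted p = 0.0090). Ndufv3, a small complex I subunit with a tissue-dependent splice form, had 24.5, 79.6 and 48.1 CPM in Choroid Positive, against 89.6, 186 and 117 CPM in Choroid Input. In the Brain it had 119, 131 and 121 CPM in Brain Positive, against 109, 83.4 and 79.5 CPM in Brain Input, the opposite order, again without overlap. Its log2 fold change of Positive over Input differed by -1.79 ± 0.39 (SE) for Choroid minus Brain, and it too was listed in the Choroid through Input alone.

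Levels were also compared between tissues, within the Positive and within the Input libraries, over the same 7270 genes. Tissue, table and any sequencing batch cannot be told apart in these comparisons. In the fit over all 7270 genes most members were lower in the Choroid and in the Retina than in the Brain in both fractions. In Choroid Positive against Brain Positive 1 of 76 members was higher and 61 lower, against 28.9% and 24.0% of all genes (median log2 fold change -0.81). In Choroid Input against Brain Input 3 were higher and 45 lower, against 36.6% and 37.1% (median -0.50). Under the stricter filter on low counts fewer members were lower and more were higher in this comparison. Its median over all genes was then 0.12, in place of -0.008. In Retina Positive against Brain Positive none was higher and 54 were lower, against 29.5% and 27.6% (median -0.71), 1 member being higher at an unadjusted p under 0.05 and 0 with DESeq2's Wald test. Under 1000 nucleotides 44 of 50 members were lower (median -0.78). Of all 576 genes of that length 355 were lower and 31 higher (median -0.66). At 1000 nucleotides or more 10 of 26 members were lower (median -0.30). Of all 6619 such genes 1631 were lower and 2090 higher (median 0.07). The part of transcript length in this comparison was not tested. In Retina Input against Brain Input none was higher, neither by DESeq2's Wald test nor at an unadjusted p under 0.05, and 61 lower, against 34.7% and 32.8% (median -0.67). The same 40 members were lower in both fractions of the Choroid than of the Brain, which is 52.6% of the members against 16% of the 7270 genes, and the same 46 in both fractions of the Retina than of the Brain (60.5%, against 19.2%). Every count against the Choroid includes members listed there through Input alone. Among the 56 members at the minimum in both Choroid fractions, 29 (51.8%) were lower than the Brain in both. Of the 2970 genes on the same terms it was 10.1%.

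Between Choroid and Retina the fractions went different ways. In Choroid Positive against Retina Positive 7 members were higher and 18 lower, against 31.4% and 31.0% of all genes (median -0.15), and in Choroid Input against Retina Input 30 were higher and 14 lower, against 34.8% and 44.7% (median 0.21, with -0.18 over all genes). With DESeq2's size factors the Input comparison gave 36 higher and 11 lower and an all-gene median of -0.05.

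Within the Positive fraction, Cox7a2l was the member higher in the Choroid than in the Brain, with 212, 482 and 311 CPM in Choroid Positive, against 213, 203 and 219 CPM in Brain Positive (log2 fold change 0.64 ± 0.24 SE, edgeR adjusted p = 0.045), where CPM is scaled over the 9 Positive libraries. The Choroid values spread widely and the lowest lay among the Brain values. The call was lost with DESeq2's size factors, with the replicate block and on leaving out any of 5 of the 6 libraries, with 0.30 without Choroid Positive 2. Cox6b2 had 8.10, 0 and 3.88 CPM in Choroid Positive, against 22.1, 23.8 and 20.4 CPM in Brain Positive (log2 fold change -2.05 ± 0.43 SE, edgeR adjusted p = 0.0023). Ndufb2, a small accessory subunit, had 16.2, 20.96 and 23.3 CPM in Choroid Positive, against 71.7, 73.3 and 74.6 CPM in Brain Positive (log2 fold change -1.90 ± 0.20 SE, edgeR adjusted p = 2.5e-05). Ndufa12, another accessory subunit, had 27.2, 5.24 and 44.7 CPM in Choroid Positive, against 96.3, 109 and 95.7 CPM in Brain Positive (log2 fold change -1.79 ± 0.34 SE, edgeR adjusted p = 0.0012). These 3 had the largest decreases, and none of them overlapped between the tissues. In the Choroid all 3 were listed through Input alone.

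Against Retina Positive, the largest increases in Choroid Positive were those of Cox7a2l, Ndufa8 and Atp5e, the epsilon subunit of ATP synthase. Cox7a2l had 212, 482 and 311 CPM in Choroid Positive, against 156, 154 and 127 CPM in Retina Positive (log2 fold change 1.17 ± 0.24 SE, edgeR adjusted p = 0.0016). Ndufa8 had 148, 154 and 179 CPM in Choroid Positive, against 89.04, 91.5 and 94.4 CPM in Retina Positive (log2 fold change 0.81 ± 0.12 SE, edgeR adjusted p = 1.7e-04). Atp5e had 93.6, 213 and 94.5 CPM in Choroid Positive, against 79.5, 83.8 and 60.8 CPM in Retina Positive (log2 fold change 0.76 ± 0.28 SE, edgeR adjusted p = 0.034), and none of these 3 genes overlapped between the tissues. The largest decreases were those of Atp5b, Ndufa10 and Ndufv3. Atp5b had 667, 555 and 637 CPM in Choroid Positive, against 1679, 1719 and 1309 CPM in Retina Positive (log2 fold change -1.34 ± 0.16 SE, edgeR adjusted p = 3.8e-05). Ndufa10 had 55.5, 89.1 and 48.6 CPM in Choroid Positive, against 152, 174 and 126 CPM in Retina Positive (log2 fold change -1.30 ± 0.21 SE, edgeR adjusted p = 3.0e-04). Ndufv3 had 27.2, 87.3 and 53.7 CPM in Choroid Positive, against 129, 125 and 107 CPM in Retina Positive (log2 fold change -1.25 ± 0.30 SE, edgeR adjusted p = 0.0038). These genes were thus higher in every Retina Positive library, in which photoreceptor markers held 3.47 to 5.74% of counts, and the part of those cells was not tested. Ndufv3 was listed in the Choroid through Input alone.

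Between Retina Positive and Brain Positive no member rose, and the largest decreases were those of Cox6b2, Uqcr11 and Ndufa3. Cox6b2 had 8.22, 5.77 and 6.51 CPM in Retina Positive, against 22.1, 23.8 and 20.4 CPM in Brain Positive (log2 fold change -1.69 ± 0.32 SE, edgeR adjusted p = 0.0011). Uqcr11, the smallest subunit of complex III, had 61.9, 61.7 and 57.9 CPM in Retina Positive, against 167, 174 and 164 CPM in Brain Positive (log2 fold change -1.48 ± 0.25 SE, edgeR adjusted p = 5.4e-04). Ndufa3, an accessory subunit of complex I, had 39.8, 48.98 and 42.9 CPM in Retina Positive, against 109, 115 and 109 CPM in Brain Positive (log2 fold change -1.34 ± 0.16 SE, edgeR adjusted p = 6.4e-05). The values of these 3 genes did not overlap between the tissues.

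Within the Input fraction, Cox6b2 had the largest increase in the Choroid over the Brain, with 24.9, 37.8 and 56.8 CPM in Choroid Input, against 6.12, 5.28 and 4.91 CPM in Brain Input (log2 fold change 2.91 ± 0.29 SE), where CPM is scaled over the 9 Input libraries. Because Cox6b2 was listed in the Choroid through Input alone, this comparison is a description and no p is given for it. Ndufb11, an accessory complex I subunit, had 181, 375 and 238 CPM in Choroid Input, against 155, 132 and 126 CPM in Brain Input (log2 fold change 0.93 ± 0.21 SE, edgeR adjusted p = 0.0020). Atp5s had 18.1, 27.9 and 26.3 CPM in Choroid Input, against 18.9, 17.4 and 16.04 CPM in Brain Input (log2 fold change 0.47 ± 0.20 SE, edgeR adjusted p = 0.049), with overlap between the tissues. Cox6b2 and Ndufb11 thus stood higher in Choroid Input than in Brain Input and lower in Choroid Positive than in Brain Positive. The largest decreases were those of Ndufv1, Cox5a and Uqcrc1. Ndufv1, the flavin-binding subunit of complex I, had 107, 117 and 137 CPM in Choroid Input, against 375, 334 and 321 CPM in Brain Input (log2 fold change -1.50 ± 0.12 SE, edgeR adjusted p = 4.0e-07). Cox5a, a matrix-side subunit of complex IV, had 68.8, 124 and 97.4 CPM in Choroid Input, against 297, 249.9 and 246 CPM in Brain Input (log2 fold change -1.46 ± 0.18 SE, edgeR adjusted p = 1.6e-05). Uqcrc1 had 144, 164 and 183 CPM in Choroid Input, against 463, 429.6 and 431 CPM in Brain Input (log2 fold change -1.43 ± 0.11 SE, edgeR adjusted p = 2.8e-07). None of these 3 overlapped between the tissues. Ndufv1 also had the lowest fold change against Retina Input, with 107, 117 and 137 CPM in Choroid Input, against 253, 268 and 284 CPM in Retina Input (log2 fold change -1.15 ± 0.12 SE, edgeR adjusted p = 3.1e-06).

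The largest increases in Choroid Input over Retina Input were those of Cox6b2, Ndufa13 and Uqcr11. Cox6b2 had 24.9, 37.8 and 56.8 CPM in Choroid Input, against 9.04, 6.95 and 6.44 CPM in Retina Input (log2 fold change 2.43 ± 0.29 SE). Here too its listing through Choroid Input alone makes the comparison a description, without a p. Ndufa13 had 226, 359.7 and 232 CPM in Choroid Input, against 119, 121 and 140.1 CPM in Retina Input (log2 fold change 1.10 ± 0.19 SE, edgeR adjusted p = 2.6e-04). Uqcr11 had 83.4, 195 and 119 CPM in Choroid Input, against 55.9, 63.5 and 64.3 CPM in Retina Input (log2 fold change 1.09 ± 0.25 SE, edgeR adjusted p = 0.0021). All 3 were higher in every Choroid Input library. After Ndufv1, the largest decreases were those of Ndufb8 and Ndufa10. Ndufb8, an accessory subunit of complex I, had 107, 91.6 and 99.3 CPM in Choroid Input, against 182, 199.7 and 202 CPM in Retina Input (log2 fold change -0.96 ± 0.10 SE, edgeR adjusted p = 5.2e-06). Ndufa10 had 83.96, 104 and 104 CPM in Choroid Input, against 163, 186 and 189 CPM in Retina Input (log2 fold change -0.88 ± 0.11 SE, edgeR adjusted p = 2.3e-05). Both were separate between the tissues.

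Between Retina Input and Brain Input no member rose, and the largest decreases were those of Sdhb, Cox6a1 and Uqcr11. Sdhb had 84.5, 77.9 and 84.3 CPM in Retina Input, against 261, 224 and 215 CPM in Brain Input (log2 fold change -1.51 ± 0.13 SE, edgeR adjusted p = 2.2e-06). Cox6a1 had 147, 148 and 156 CPM in Retina Input, against 425, 335 and 326 CPM in Brain Input (log2 fold change -1.27 ± 0.17 SE, edgeR adjusted p = 6.6e-05). Uqcr11 had 55.9, 63.5 and 64.3 CPM in Retina Input, against 180.2, 133 and 123 CPM in Brain Input (log2 fold change -1.25 ± 0.25 SE, edgeR adjusted p = 9.2e-04). The tissues did not overlap in these 3 genes.

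**Figure D5:**
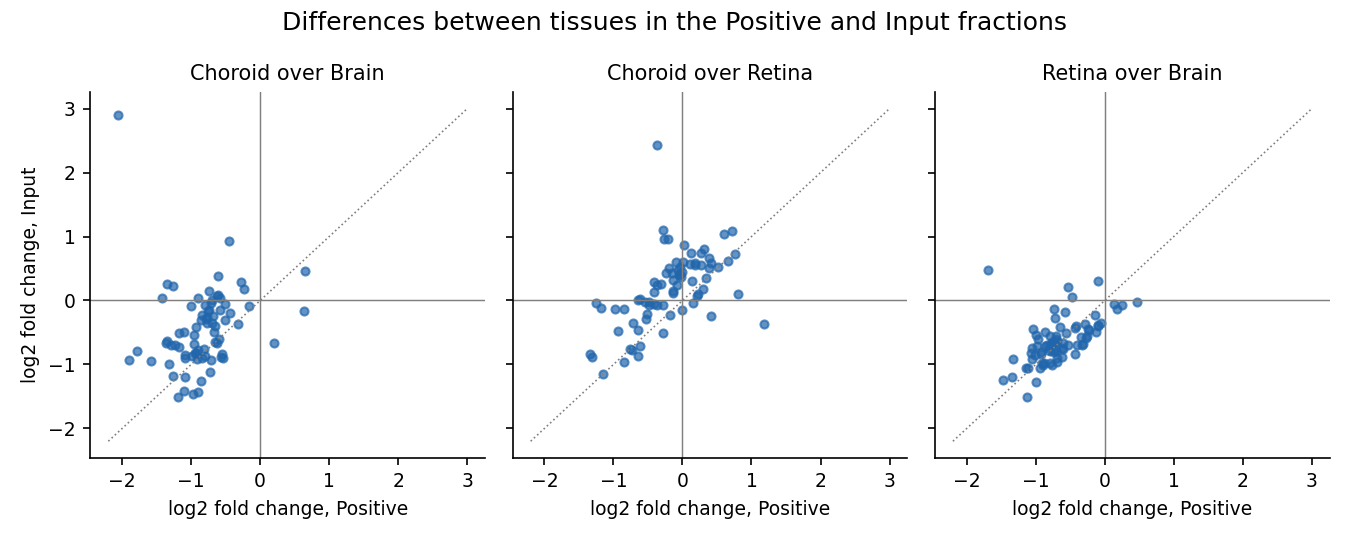
Log2 fold change between tissues of each of the 76 shared members, within the Positive libraries (horizontal axis) and within the Input libraries (vertical axis); each point is a member and the dotted line marks equal values. Most members lie below 0 against the Brain (medians -0.81 and -0.71 in Positive, -0.50 and -0.67 in Input), and the Choroid against the Retina is centred at -0.15 in Positive and 0.21 in Input.

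Per kilobase of transcript, the median member stood at 125 CPM in Choroid Positive and 168 in Choroid Input, 133 in Retina Positive and 157 in Retina Input, and 202 in Brain Positive and 219 in Brain Input. The most abundant members per kilobase were the same few genes: Cox4i1 led in both Choroid fractions (501 CPM per kilobase in Positive, 779 in Input) and in both Brain fractions (848 and 994), and Atp5b led in both Retina fractions (819 and 913). Ndufa4 and Cox8a were also among the first 5 in most groups. Atp5s, Ndufb2 and Cox6b2 were among the lowest, with Atp5s at 7.63 CPM per kilobase in Brain Positive and 11.3 in Brain Input.

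Further genes outside the symbol rule were taken from lists chosen by function. Their counts stand against the shares of all genes that rose and fell, which were 16.3% and 20.2% in the Choroid, 15.3% and 10.8% in the Retina, and 38.3% and 39.7% in the Brain. Of 13 enzymes of the tricarboxylic acid cycle, 0 rose and 4 fell in the Choroid, 1 rose and 0 fell in the Retina, and 1 rose and 10 fell in the Brain. Suclg2, a subunit of the GTP-forming succinyl-CoA synthetase, was the 1 that rose, with log2 fold changes of 1.31 (edgeR adjusted p = 0.0075) in the Retina and 1.50 (edgeR adjusted p = 2.6e-07) in the Brain, and in the Choroid, where it was listed through Input alone, it had -1.28. Idh3a, of the NAD-dependent isocitrate dehydrogenase, had -0.84 (edgeR adjusted p = 1.4e-06) in the Brain. Of 16 genes of mitochondrial import, outer membrane channels and cristae, 1 fell in the Choroid (Vdac1, log2 fold change -0.86, edgeR adjusted p = 0.0083), none passed in the Retina, and 2 rose and 11 fell in the Brain, where Opa1, which shapes cristae and fuses inner membranes, had -0.82 (edgeR adjusted p = 3.0e-06).

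Assembly factors were less often listed. Of 16 complex I assembly factors, 0 rose and 1 fell of 5 listed in the Choroid, none passed of 13 in the Retina, and 1 rose (Nubpl, log2 fold change 1.06, edgeR adjusted p = 4.5e-05) and 7 fell of 13 in the Brain. Of 10 factors for complexes II and III, none passed of 3 in the Choroid, 1 fell of 5 in the Retina, and 2 rose and 2 fell of 5 in the Brain. Of 23 factors for complex IV, 3 fell of 7 in the Choroid, 3 fell of 14 in the Retina, and 6 rose and 3 fell of 15 in the Brain, with Cox16 at 0.86 (edgeR adjusted p = 1.8e-04) and Lrpprc, which stabilises mitochondrial messenger RNA, at -0.60 (edgeR adjusted p = 2.1e-05). Of 4 factors for ATP synthase, none passed of 1 in the Choroid and of 3 in the Retina, and 1 fell of 3 in the Brain. Of 22 mobile carriers and accessory genes outside the symbol rule, 0 rose and 6 fell of 14 in the Choroid, 1 rose and 1 fell of 21 in the Retina, and 4 rose and 9 fell of 21 in the Brain. Among them Etfb, of the electron transfer flavoprotein, had -1.41 (edgeR adjusted p = 3.8e-04) in the Choroid, 0.59 (edgeR adjusted p = 0.012) in the Retina and 1.21 (edgeR adjusted p = 5.8e-06) in the Brain, and Cyc1, the cytochrome c1 gene of complex III, had -0.27 (edgeR adjusted p = 0.0031) in the Brain.

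Some member values carry an annotation limit. The spans of 15 members overlap that of another protein-coding gene, Ndufa8 and Cox6b2 not among them, but Atp5j (with Gabpa), Ndufa13 (with Tssk6), Ndufa4l2 (with Shmt2), Ndufb11 (with Rbm10), Cox4i2 (with Bcl2l1), Cox6a2 (with Itgad), Atp5d (with Cbarp) and Ndufa1 (with Rnf113a1) are. A processed copy of Ndufs5, BC002163, is listed in the Retina and Brain tables, so the Ndufs5 values are uncertain.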

How the data were processed

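RNA of TRAP-bound (Positive) and homogenate (Input) fractions was sequenced in 18 libraries. The deposited tables hold raw values per gene, estimated counts that need not be whole, beside the authors' normalized log2 values, which served only for an alternative scaling. The submitters' processing notes name DESeq and the build mm10, and libraries were made with a directional kit, per the labels' protocols. The sources used here do not name the aligner or the counter, or say whether strand was used. Every listed gene reached 50 raw counts in all 3 libraries of at least 1 fraction, so a tissue's table leaves out genes low in both.

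The raw values were rounded and fitted with edgeR 4.0.16 (R 4.3.3; TMM scaling, quasi-likelihood F test, Benjamini-Hochberg over all genes of the fit, adjusted p under 0.05). A minimum count of 10 (filterByExpr) took out 0 genes. Positive was compared with Input in 1 fit per tissue (4 residual degrees of freedom), tissues within each fraction in 9 libraries (6), and differences of fold changes in 18 libraries (12), the last over the 7270 genes in all 3 tables. CPM were scaled with the same factors. Counts per library set the precision, and the Choroid Positive libraries were the shallowest. Limits from a count of 0 are 3 counts and cover counting error only.

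Same-numbered Positive and Input libraries deviated together in the Brain (correlations 0.190, 0.147 and 0.169) and the Choroid (0.188, 0.202 and 0.137), all above 0.1, so the numbers were taken to pair the fractions there. In the Retina they were 0.102, 0.281 and 0.00140. The edgeR adjusted p-values and the exact permutation tests given here did not use the pairing, and the replicate block was run as an alternative.

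Isoform shares used raw values divided by the median annotated transcript length, with exact permutation tests over libraries. Promoter windows came from RefSeq (GRCm38.p6). Named genes were the isoform genes and their counterparts, the complex II genes, the largest changes per tissue and complex, and the 3 largest each way between tissues; genes named beyond these (among them Ndufa7, Ndufs1, Ndufv3 and Ndufa13) were chosen after their values were seen. Members and lists were chosen with earlier results of these data known. Alternatives were DESeq2 1.42.0 (size factors; Wald test), a stricter filter, a replicate block, a fold threshold of 1.5, leaving out each library, and, added after seeing the data, the authors' size factors. Python 3.11.15 with pandas 2.3.3, numpy 2.4.6 and matplotlib 3.10.9 served for tables and plots.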

Additional observations from a re-analysis of the deposited data

Results flagged for a closer look

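The log2 fold change of Positive over Input differed between tissues, by the test of the difference itself in the fit over 18 libraries, for 7 members named here. Cox6b2 differed in all 3 comparisons, by -5.11 for Choroid minus Brain, -2.82 for Choroid minus Retina and -2.29 for Retina minus Brain, its own fold changes being -3.02 in the Choroid, 0.08 in the Retina and 2.33 in the Brain. Its Choroid Positive value rests on few reads, and it was listed in the Choroid through Input alone, as were Ndufv3 and Atp5k. Cox7a2l differed by 1.51 for Choroid minus Retina and -0.89 for Retina minus Brain, having fallen in the Retina and risen in the other tissues. Ndufa8 differed by 0.71 for Choroid minus Brain and 0.68 for Choroid minus Retina.

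Atp5g2, 1 of the genes of the ATP synthase c subunit, had fold changes of 0.23 in the Choroid, -0.19 in the Retina and 0.49 in the Brain, and differed by 0.61 ± 0.20 (SE, edgeR adjusted p = 0.018) for Choroid minus Retina and -0.73 ± 0.19 (SE, edgeR adjusted p = 0.0068) for Retina minus Brain. Ndufv3 differed by -1.79 for Choroid minus Brain and by -1.26 ± 0.39 (SE) for Choroid minus Retina. Atp5k differed by -1.67 ± 0.41 (SE) for Choroid minus Brain, with fold changes of -1.51 in the Choroid and 0.27 in the Brain. Ndufa13 differed by -1.41 ± 0.26 (SE, edgeR adjusted p = 3.4e-04) for Choroid minus Retina, with fold changes of -1.31 and 0.32.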

How the results depend on the processing

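Among the isoform genes and counterparts, the complex II genes and the largest changes, no called fold change changed sign under the alternatives run. The members' median for Retina minus Brain did: it was -0.14, against 0.08 with DESeq2's size factors or Wald test and 0.14 with the stricter filter. The Retina median of 0.02 was -0.06 without Retina Positive 2 and -0.02 without Retina Input 1. Of the values of single results under the alternatives, isoform shares included, 1323 stayed the same, 76 lost the call, 17 gained it and 7 moved. For an isoform share there is no call. It counted as the same where it shifted by less than the larger SD of its fractions, and otherwise as moved. The members that rose in the Choroid (2) numbered 0 to 2 without 1 library, and 1 with the stricter filter or the authors' size factors; those that fell (23) numbered 10 to 37 without 1 library and 36 with the replicate block. In the Retina 5 rose, 0 to 11 without 1 library, 3 with the authors' size factors and 0 at a 1.5-fold threshold, and 1 fell, 0 to 0 without 1 library, and 0 with the replicate block or at 1.5-fold. In the Brain 28 rose, 21 to 48 without 1 library and 7 at 1.5-fold, and 13 fell, 10 to 12 without 1 library, 7 with the authors' size factors and 1 at 1.5-fold. The cause of these moves was not tested, except that the fold threshold sets a larger difference to be passed.

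For the difference of fold changes, Choroid minus Brain had 1 member higher (1 to 3 without 1 library, 3 with DESeq2's size factors, 5 with its Wald test) and 30 lower (19 to 45; 19 with DESeq2's size factors). Choroid minus Retina had 3 higher (3 to 3 without 1 library; 1 with the stricter filter) and 16 lower (8 to 35; 33 with the stricter filter, 28 with the Wald test). Leaving out Choroid Positive 2 gave 35 and leaving out Retina Positive 2 gave 8 of these. Retina minus Brain had 0 higher (0 to 0 without 1 library; 3, 6 and 10 with DESeq2's size factors, the stricter filter and the Wald test) and 3 lower (3 to 4; 1 with the stricter filter and 10 with the replicate block).

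Between tissues, Choroid Positive over Brain Positive had 1 higher (0 to 2 without 1 library; 0 with DESeq2's size factors or the replicate block, 2 with the Wald test) and 61 lower (54 to 71). Choroid Positive over Retina Positive had 7 higher (3 to 10; 4 with the stricter filter) and 18 lower (14 to 27). Retina Positive over Brain Positive had 0 higher (0 to 1; 1 with the stricter filter or the replicate block) and 54 lower (46 to 57). Choroid Input over Brain Input had 3 higher (2 to 4; 12 with the stricter filter) and 45 lower (38 to 53; 23 with the stricter filter). Choroid Input over Retina Input had 30 higher (20 to 34; 48 with the stricter filter) and 14 lower (13 to 15; 8 with the stricter filter). Retina Input over Brain Input had 61 lower (54 to 62). The stricter filter left 3635 of the 7270 genes to test, yet some of these counts rose under it. The median over all genes moved as well, from -0.008 to 0.12 in Choroid Input over Brain Input and from -0.18 to -0.04 in Choroid Input over Retina Input. The cause of these changes was not tested.

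Counted over the genes in all 3 tables only, the members' share was 1.19% in Retina Positive, 1.25% in Retina Input, 1.73% in Brain Positive and 1.89% in Brain Input. By the check used, the replicate numbers were not taken to pair libraries of different tissues or the fractions of the Retina. Of 9 same-numbered pairs between tissues, 3 in Input and 1 in Positive had a correlation above 0.1. Whether equal numbers mark the same animals is not given, and this check cannot exclude it. The tests between tissues treated the libraries as independent. The replicate block moved no other count of members by over 1.5 times. Depth limits the Choroid: 22 members did not reach the minimum in Choroid Positive.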

Other observations

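Of 17 regulators of mitochondrial transcription and biogenesis, 7 were listed in the Choroid, where 2 rose and 1 fell. In the Retina 16 were listed, of which 1 rose and 2 fell, and in the Brain 16, of which 5 rose and 4 fell. Of all genes 16.3% rose and 20.2% fell in the Choroid, 15.3% and 10.8% in the Retina and 38.3% and 39.7% in the Brain. Ppargc1a, the coactivator PGC-1alpha, had log2 fold changes of Positive over Input of -1.89 in the Choroid, where it was listed through Input alone, -0.34 (edgeR adjusted p = 0.0497) in the Retina and -0.83 (edgeR adjusted p = 1.7e-05) in the Brain. Yy1, a transcription factor known to work with it, rose in each, at 0.98 (edgeR adjusted p = 0.0074), 1.03 (edgeR adjusted p = 0.014) and 0.78 (edgeR adjusted p = 3.9e-06) in the same order of tissues. Of the genes for GABP, which binds the ETS motif, Gabpb1 had 1.17 in the Choroid, where it was listed through Positive alone, and Gabpa rose by 0.81 (edgeR adjusted p = 5.8e-06) in the Brain, and the span of Gabpa overlaps that of Atp5j.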
